A study of Mus musculus with 6 samples.

Results

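Transfer RNAs encoded by the mitochondrial genome were followed as short fragments in small RNA libraries of mouse skeletal muscle. They were the rows of the tRNA table that carry an Ensembl transcript identifier in place of a nuclear tRNA name, 22 of the 290 tRNAs listed, and the other 268 were nuclear. No measured value entered that rule. All 22 identifiers matched mitochondrial tRNA genes in the GENCODE annotation of GRCm38, 14 on the plus strand and 8 on the minus strand of the mitochondrial chromosome, between 59 and 75 bases long. The libraries came from male C57BL6 mice aged 16 weeks on normal chow, 3 after sham surgery (labelled as control, here Sham) and 3 after transverse aortic constriction (TAC), which narrows the aortic arch and overloads the heart. The sample records give a treatment time of 8 weeks and the protocol a harvest between 8 and 10 weeks after the operation. The genotype field gives the strain alone for both groups, and the muscle taken is not named. Each library was built from 100 ng of total RNA with a kit that tags every molecule with a unique molecular identifier (UMI). The labels do not say that each library is a separate animal, so p-values measure the spread between these libraries.

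A mammalian mitochondrion makes its own set of tRNAs, which decode the messages for the respiratory chain subunits written in its small circular genome. Both strands are transcribed as long precursors in which tRNAs sit between the other genes like punctuation. The tRNAs are cut out by mitochondrial RNase P at the 5′ end and by ELAC2 at the 3′ end, and the enzyme TRNT1 then adds the letters CCA, which the genome does not encode, so that an amino acid can be attached. Skeletal muscle depends on this system, and inherited mutations of mitochondrial tRNAs often show themselves as muscle disease. In bulk tissue, fewer cells of a type and less RNA per cell cannot be told apart.

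The genes on which the results turn are shown 5′ to 3′ along the RNA strand, written as DNA, with the anticodon in capitals. The sequences are those of the GENCODE transcripts, the anticodon was located by a search for the expected triplet between paired stem bases, and coordinates are GRCm38. The serine tRNA mt-Ts2, which reads the AGY codons and is known for lacking the D arm, lies on the plus strand at chrM:11613-11671, directly after the histidine tRNA mt-Th at chrM:11546-11612. The second serine tRNA, mt-Ts1, reads the UCN codons and lies on the minus strand at chrM:6870-6938. The glutamine tRNA mt-Tq is on the minus strand at chrM:3772-3842, where it overlaps the end of the isoleucine tRNA mt-Ti of the plus strand. The leucine tRNA mt-Tl1 (plus strand, chrM:2676-2750) reads UUR codons, and its human counterpart is the most frequent site of the MELAS mutations. The methionine tRNA mt-Tm (plus strand, chrM:3845-3913) serves both initiation and elongation, and the valine tRNA mt-Tv (plus strand, chrM:1025-1093) lies between the 2 ribosomal RNA genes.
mt-Ts2: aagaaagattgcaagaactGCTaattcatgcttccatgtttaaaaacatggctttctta
mt-Th: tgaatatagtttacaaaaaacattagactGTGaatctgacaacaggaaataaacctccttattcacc
mt-Ts1: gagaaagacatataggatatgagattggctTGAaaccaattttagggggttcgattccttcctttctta
mt-Tq: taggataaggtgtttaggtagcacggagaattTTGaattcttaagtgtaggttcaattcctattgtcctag
mt-Tl1: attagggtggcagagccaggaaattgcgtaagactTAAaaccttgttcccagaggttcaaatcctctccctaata
mt-Tm: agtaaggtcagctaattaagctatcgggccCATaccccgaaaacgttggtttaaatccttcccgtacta
mt-Tv: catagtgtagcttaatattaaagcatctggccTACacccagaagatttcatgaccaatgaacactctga

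Total reads ranged from 1695043 in Sham 3 to 5146811 in Sham 1, and the UMIs of the tRNA table from 35384 to 93602. All skeletal muscle miRNAs of the marker list were present, at 506300 to 614100 per 1000000 miRNA UMIs in all 6 libraries, and neither heart marker (Myh6 and miR-208a-3p) was listed. The tRNA class took 1.86% to 2.13% of all reads in Sham against 1.22% to 1.38% in TAC, so every TAC library was lower than every Sham library before any single tRNA was considered. Reads per UMI were 1.02 to 1.03 for the mitochondrial tRNAs. Libraries of the same group differed by 10.8 to 33.1 times the sampling noise of counting alone (chi-square per degree of freedom over all tRNAs), so none was the same library deposited again.

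Mitochondrial tRNAs made up a large part of the tRNA fragments, and a single serine tRNA made up most of them. Their share of all tRNA UMIs was 46.8%, 39.1% and 27.7% in Sham 1, 2 and 3 against 48.8%, 35.2% and 39.6% in TAC 1, 2 and 3. The groups overlapped, with Sham 3 lowest and TAC 1 highest. Within the mitochondrial pool mt-Ts2 held 56.4%, 58.4% and 54.8% of the UMIs in Sham against 59.2%, 59.9% and 60.4% in TAC. Its share was higher in each TAC library than in any of the Sham libraries, with a mean of 59.8% ± 0.596 against 56.5% ± 1.80 (SD, n = 3). The shares of mt-Th (higher in TAC), mt-Ts1, mt-Ti and mt-Ty (lower) also did not overlap, and a share rises where others fall. Of all tRNA UMIs mt-Ts2 held 15.2% to 26.4% in Sham against 21.1% to 28.9% in TAC, with overlap. The tRNA table gives no fragment lengths, and adapter ligation favours some ends over others, so these are shares of fragments and not of tRNA molecules.

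Per base of gene length, over all 6 libraries, mt-Ts2 took 62.0% of the mitochondrial tRNA UMIs. The next were mt-Tl1 with 4.92%, mt-Ts1 with 4.81%, mt-Tq with 3.90%, mt-Tm with 3.23% and mt-Th with 3.16%. This order pools both groups and was not the same in each: mt-Th held 2.02% to 2.41% of the mitochondrial tRNA UMIs in Sham against 4.05% to 5.67% in TAC, and mt-Ts1 5.36% to 7.09% against 2.99% to 4.29%. Apart from mt-Ts2 at the top and mt-Tf at the bottom, neighbours in this order overlapped in their library values. The lowest were the phenylalanine tRNA mt-Tf (0.160%), the tryptophan tRNA mt-Tw (0.514%), the arginine tRNA mt-Tr (0.630%), the threonine tRNA mt-Tt (0.704%) and the aspartate tRNA mt-Td (0.706%). In UMIs, mt-Tf had 69, 67 and 6 in Sham against 41, 25 and 18 in TAC, so its values carry the largest counting error of the 22. The rank order was much the same in all libraries: log2 CPM over the 22 tRNAs correlated between pairs of libraries with Pearson r from 0.894 (Sham 3 with TAC 1) to 0.984 (TAC 1 with TAC 2), a description over tRNAs that share each library's scaling. CPM here is UMIs per 1000000 UMIs of the tRNA class after TMM scaling.

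**Figure D1:**
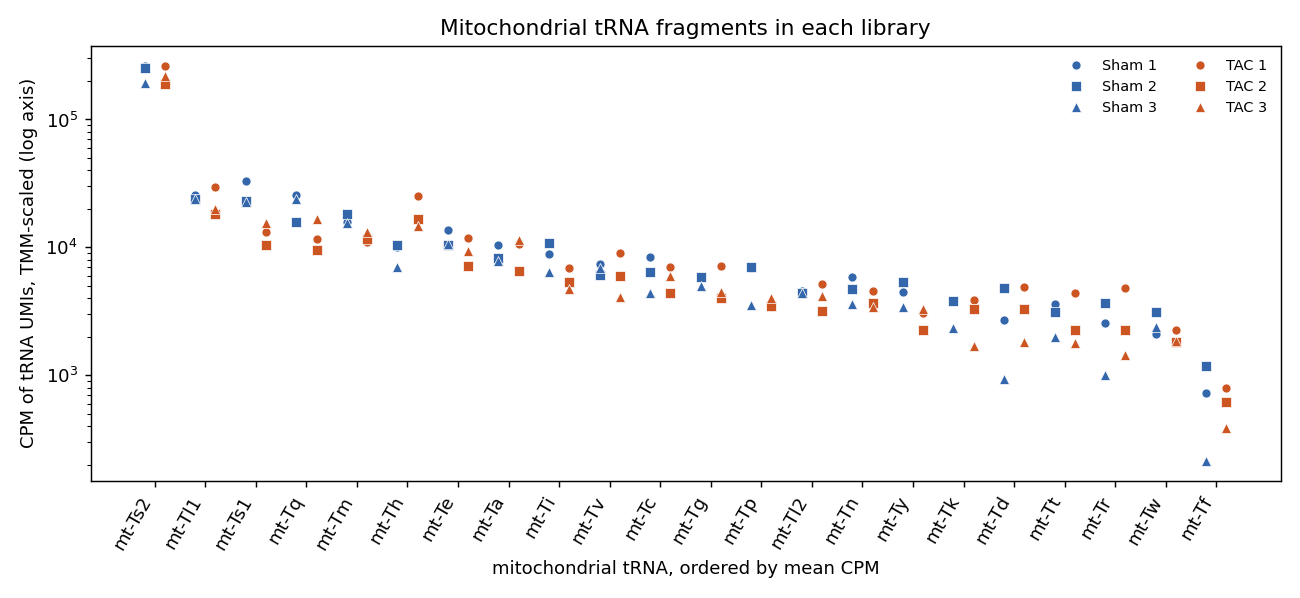
CPM of each of the 22 mitochondrial tRNAs (log axis) in each library, with Sham in blue, TAC in orange and the replicate number as the marker shape. The serine tRNA mt-Ts2 stands above all others in every library, and mt-Th has all 3 TAC libraries above all 3 Sham libraries.

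Between TAC and Sham none of the 22 mitochondrial tRNAs passed an adjusted p of 0.05 in edgeR's quasi-likelihood test fitted on the whole tRNA table. The same test called 10 of the 238 tRNAs tested (4.2%), all of them nuclear. All 22 mitochondrial tRNAs passed the filter on low counts. An unadjusted p under 0.05 was reached by 3 of them, mt-Th (higher), mt-Ts1 and mt-Tq (both lower), beside 45 of all 238 (18.9%). DESeq2 called 0 of the 22, beside 6 of all 238 (2.52%), and gave an unadjusted p under 0.05 for 4 of the 22, beside 36 of all 238 (15.1%). With the replicate number as a block, whose numbers met the criterion for pairing, edgeR called those 3 and no other mitochondrial tRNA, beside 29 of all 238 (12.2%). The labels do not say what the numbers mark. The pairing was taken from these same tRNA values, so results with the block, here and below, are a description. The median log2 fold change over the 22 was -0.16, and 18 of 22 values were below 0, while over all 238 tRNAs the median was -0.05 with 126 below 0.

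These medians depend on the scaling and on single libraries. With library sizes of the tRNA class in place of TMM factors the median was 0.11 over the 22 and 0.25 over all 238, with miRNA-based library sizes -0.32 and -0.18, and with library sizes over all RNA classes -0.55 and -0.42. With library sizes of the tRNA class 10 of the 22 values were below 0, and with upper-quartile factors 12 of the 22. Without TAC 2 the median was -0.07 over the 22, with 12 below 0, and -0.006 over all tRNAs. Without TAC 1 it was -0.42, with 20 below 0, and -0.04 over all tRNAs, and without Sham 3 it was -0.37, with 20 below 0, and -0.008 over all tRNAs.

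The histidine tRNA had the highest fold change of the 22. In CPM mt-Th had 10110, 10440 and 7080 in Sham 1, 2 and 3 against 25140, 16580 and 14750 in TAC 1, 2 and 3. The groups did not overlap, and TAC 1 was the highest. The log2 fold change was 1.03 (SE 0.37, 95% interval 0.26 to 1.80). In edgeR the adjusted p was 0.141, and in DESeq2 0.0764. With the replicate block it was 1.01 (SE 0.28) with an adjusted p of 0.00437 in edgeR, and with library sizes only 1.31 with an adjusted p of 0.0292, where 5.88% of all tRNAs were called. With miRNA-based library sizes it was 0.88 (adjusted p = 0.237 by edgeR), and with library sizes over all RNA classes 0.65 (adjusted p = 0.236). With its tailed 3′ fragments of mitochondrial placement added, as described at the end, it was 0.60 (adjusted p = 0.288 by edgeR, and 0.109 with the block). Leaving out any 1 library gave 0.76 to 1.17, with adjusted p-values from 0.125 to 0.514. Since mt-Th ranks sixth by CPM and did not pass in the main test, it falls outside the naming rule and was chosen after its values were seen, as were mt-Tl2, mt-Ty and mt-Tv.

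The tRNAs next to mt-Th on the same strand had fold changes near 0. Directly downstream, mt-Ts2 had 263300, 253300 and 191700 CPM in Sham against 262600, 188200 and 219900 in TAC. The groups overlapped fully, and the log2 fold change was -0.08 (SE 0.37, 95% interval -0.84 to 0.68, adjusted p = 0.920 by edgeR), which turned above 0 with library sizes only (0.20), with upper-quartile factors (0.03) and without TAC 2 (0.05). The next gene, the leucine tRNA mt-Tl2 that reads CUN codons, had 4600, 4410 and 4398 CPM in Sham against 5132, 3177 and 4195 in TAC (log2 fold change -0.10, SE 0.34). Ratios within a library do not depend on the scaling. For every 100 UMIs of mt-Ts2 there were 3.84, 4.12 and 3.69 UMIs of mt-Th in Sham against 9.58, 8.81 and 6.71 in TAC, with no overlap. The same ratio for mt-Tl2 was 1.75, 1.74 and 2.29 in Sham against 1.96, 1.69 and 1.91 in TAC, with overlap. These ratios were picked after the values were seen and have no test, and 3 against 3 libraries cannot give an exact permutation p below 0.1.

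**Figure D2:**
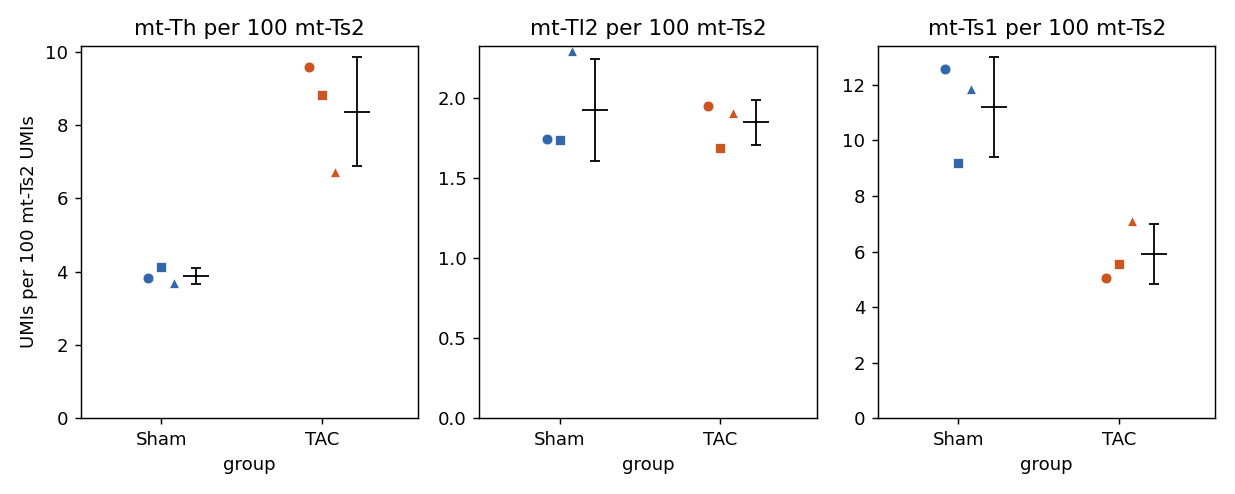
UMIs of mt-Th, mt-Tl2 and mt-Ts1 per 100 UMIs of mt-Ts2 in each library, one point per library with the marker shape for its number and a bar for the mean and SD (n = 3). The mt-Th ratio is 3.69 to 4.12 in Sham against 6.71 to 9.58 in TAC, the mt-Ts1 ratio is 9.18 to 12.6 in Sham against 5.04 to 7.11 in TAC, and the mt-Tl2 groups overlap.

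The second serine tRNA had the lowest fold change. In CPM mt-Ts1 had 33080, 23250 and 22740 in Sham against 13230, 10450 and 15630 in TAC, every TAC library below every Sham library. The log2 fold change was -1.01 (SE 0.37, 95% interval -1.77 to -0.25). The adjusted p was 0.141 in edgeR and 0.0597 in DESeq2. It was -1.01 (SE 0.28) with an adjusted p of 0.00535 with the replicate block in edgeR, and -1.38 with an adjusted p of 0.0364 with library sizes over all RNA classes, where 7.14% of all tRNAs were called. With tRNA library sizes it was -0.74 (adjusted p = 0.233 by edgeR). Leaving out any 1 library gave -1.16 to -0.83. Per 100 UMIs of mt-Ts2 there were 12.6, 9.18 and 11.9 UMIs of mt-Ts1 in Sham against 5.04, 5.55 and 7.11 in TAC, so the ratio of the minus-strand to the plus-strand serine tRNA was lower in TAC without overlap.

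The other abundant members showed smaller differences. The glutamine tRNA mt-Tq had 25900, 15730 and 23780 CPM in Sham against 11610, 9581 and 16550 in TAC. Its groups overlapped, since TAC 3 was above Sham 2. The log2 fold change was -0.79 (SE 0.38, adjusted p = 0.254 by edgeR), and with the replicate block -0.80 with an adjusted p of 0.0371. Next, mt-Tm had 15890, 18340 and 15410 CPM in Sham against 11000, 11640 and 13250 in TAC. Its groups did not overlap, and the log2 fold change of -0.47 (SE 0.35, adjusted p = 0.439 by edgeR) did not pass. Last, mt-Tl1 had 25910, 23830 and 24030 CPM in Sham against 29810, 18220 and 20010 in TAC. The Sham libraries lay close together within the wider TAC range, and the log2 fold change was -0.12 (SE 0.36, adjusted p = 0.895 by edgeR).

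The remaining 16 tRNAs, beside the 5 most abundant and mt-Th, had log2 fold changes from -0.68 for the proline tRNA mt-Tp to 0.23 for the aspartate tRNA mt-Td, and none passed in any alternative run. Below 0 lay also the isoleucine tRNA mt-Ti (-0.62) and the tyrosine tRNA mt-Ty (-0.62). Between -0.36 and -0.07 lay the tRNAs for tryptophan (mt-Tw), phenylalanine (mt-Tf), glutamate (mt-Te), asparagine (mt-Tn), lysine (mt-Tk), cysteine (mt-Tc), glycine (mt-Tg), leucine (mt-Tl2), valine (mt-Tv) and threonine (mt-Tt), with adjusted p-values of 0.532 or more in edgeR. Scaled by library size alone, mt-Tk, mt-Tc, mt-Tg, mt-Tl2, mt-Tv and mt-Tt lay above 0, at log2 fold changes from 0.10 for mt-Tk to 0.21 for mt-Tv. Above 0 lay mt-Td, mt-Tr (0.21) and the alanine tRNA mt-Ta (0.10), each of which changed sign in at least 1 alternative. In CPM the groups did not overlap for 4 of the 22, mt-Th higher and mt-Ts1, mt-Tm and mt-Ty lower, beside 34 of 238 higher (14.3%) and 16 of 238 lower (6.72%) over all tRNAs. Spread within a group was widest for mt-Td, mt-Tf and mt-Tr, whose coefficients of variation in Sham were 68.8%, 68.2% and 55.9%. Each was lowest in Sham 3, with 26, 6 and 28 UMIs, at a log2 ratio of -2.02, -2.16 and -1.65 to the mean of the other Sham libraries. The other extreme was mt-Tl2, with 2.54% in Sham. TAC 2 held the lowest CPM for 11 of the 22 tRNAs and TAC 1 the highest for 9.

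By coding strand, 7 of the 8 minus-strand tRNAs and 11 of the 14 plus-strand tRNAs had a log2 fold change below 0, with medians of -0.46 and -0.10. Without TAC 2 the plus-strand median was 0.045, with 6 of 14 below 0, and without TAC 1 it was -0.41, with 13 of 14 below 0. With library sizes of the tRNA class it was 0.19, with 4 of 14 below 0, and with upper-quartile factors 0.017, with 5 of 14 below 0. The minus-strand median stayed below 0 in the same 4 alternatives, at -0.34, -0.57, -0.18 and -0.35. The minus-strand tRNAs (mt-Tq, mt-Ta, mt-Tn, mt-Tc, mt-Ty, mt-Ts1, mt-Te and mt-Tp) held 23.3%, 18.7% and 22.9% of the mitochondrial tRNA UMIs in Sham against 14.8%, 15.1% and 19.1% in TAC. The groups overlapped in this share because TAC 3 was above Sham 2. Leaving mt-Ts2 out of the pool, the shares were 53.6%, 44.9% and 50.6% in Sham against 36.2%, 37.7% and 48.3% in TAC, again with TAC 3 above Sham 2. Over the 22 tRNAs the log2 fold change correlated with GC content with r = -0.43 (Spearman rho -0.51), with length with r = -0.11 and with mean log2 CPM with r = -0.02. The GC content also followed differences between libraries of the same group: r was 0.61 for Sham 3 against the other Sham libraries and -0.61 for TAC 1 against the other TAC libraries. These are correlations over tRNAs measured in the same 6 libraries, given as a description.

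**Figure D3:**
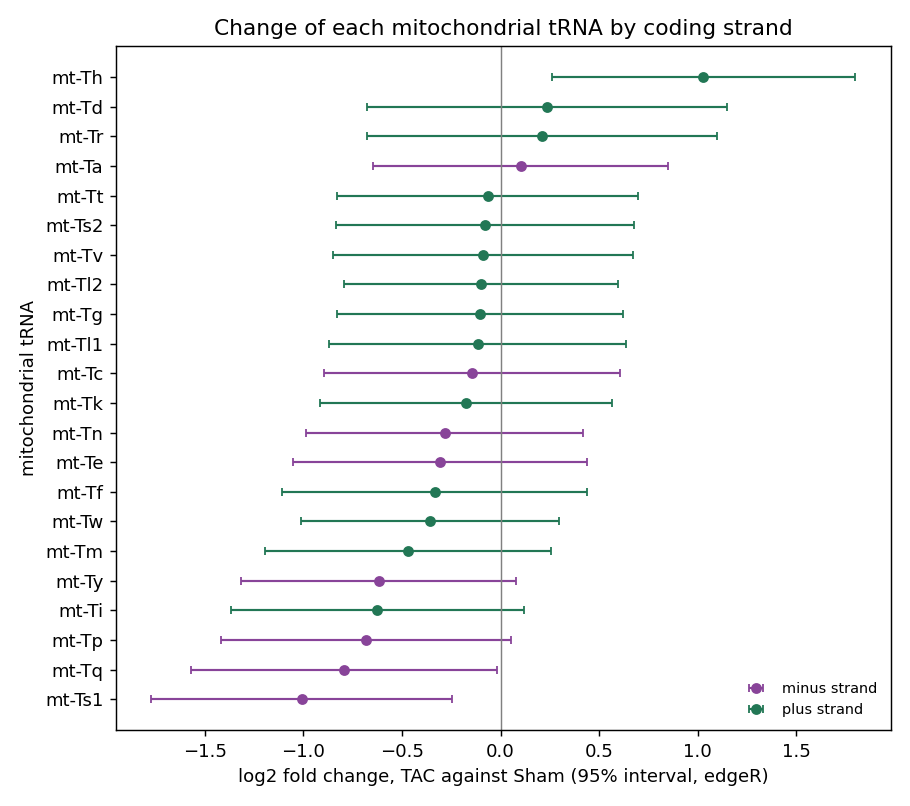
Log2 fold change of each mitochondrial tRNA, TAC against Sham, with its 95% interval from edgeR, for genes of the plus strand (green) and the minus strand (purple). The intervals of mt-Th (0.26 to 1.80), mt-Ts1 (-1.77 to -0.25) and mt-Tq (-1.57 to -0.02) lie to one side of 0 before adjustment, and none of the 22 passes after it.

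Set against the miRNAs of the same libraries, the whole tRNA class was lower in TAC and the mitochondrial tRNAs were part of that. Mitochondrial tRNA UMIs per 1000000 miRNA UMIs came to 12734, 10420 and 8299 in Sham against 7992, 5903 and 7409 in TAC, without overlap, though Sham 3 and TAC 1 lay close together. The means were 10480 ± 2218 and 7102 ± 1078 (SD, n = 3), and the mean log2 values differed by -0.55. Nuclear tRNA UMIs per 1000000 miRNA UMIs came to 14474, 16230 and 21703 in Sham against 8394, 10870 and 11320 in TAC. On this scale 11 of the 22 mitochondrial tRNAs had all TAC values below all Sham values, beside 74 of 238 over all tRNAs (31.1%), and mt-Th had all TAC values above all Sham values, beside 12 of 238 (5.04%). The minus-strand tRNAs made 6 of those 11. These values are of the tRNA table alone. With its tailed 3′ fragments of mitochondrial placement added on this scale, mt-Th overlapped between the groups, with TAC 2 below Sham 1. None of the 22 passed with miRNA-based library sizes, where edgeR called 5 of 238 (2.1%). An unadjusted p under 0.05 was found there for 6 of the 22, beside 42 of 238 (17.6%).

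**Figure D4:**
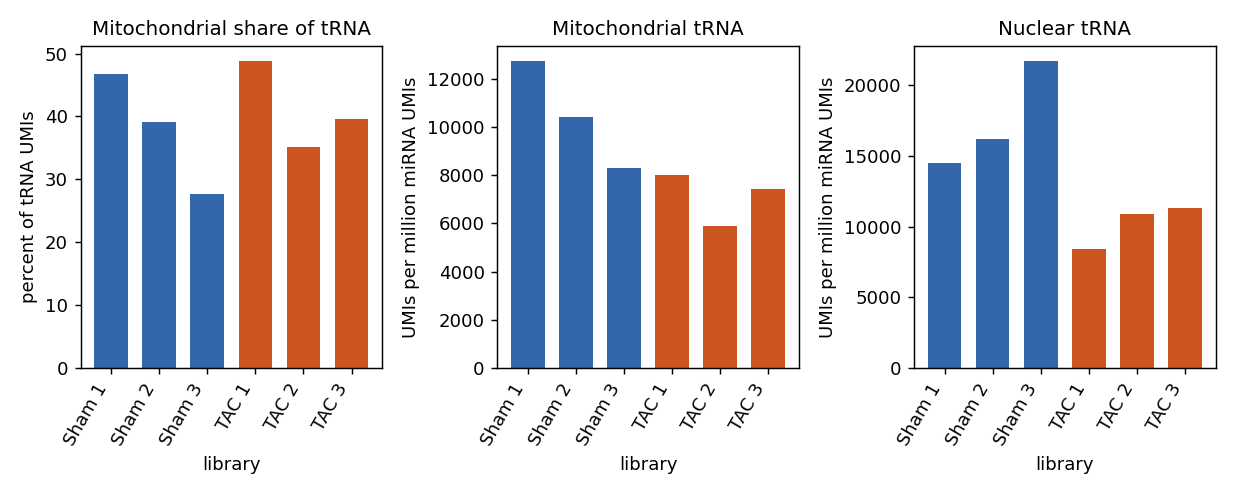
Mitochondrial share of tRNA UMIs (percent), mitochondrial tRNA UMIs and nuclear tRNA UMIs per 1000000 miRNA UMIs, one bar per library, Sham in blue and TAC in orange. The share overlaps between the groups, while both kinds of tRNA are lower in each TAC library than in each Sham library relative to the miRNAs.

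Markers of other tissues moved with the groups. All 5 kidney mRNAs of the marker list were present and summed to 13.6 to 28.2 per 1000000 miRNA UMIs in Sham against 0 to 0.436 in TAC, where Umod, Cubn and Slc34a1 were at 0. Of the kidney and epithelial miRNAs 3 of 5 were listed, at 22.9 to 68.6 in Sham against 1.31 to 6.26 in TAC. The liver miRNA miR-122-5p was at 3.39 to 17.4 in Sham against 63.6 to 1895 in TAC, and fragments of the albumin mRNA were at 0 in Sham against 2.18 to 38.7 in TAC. The other liver mRNA of the marker list, Apoa1, was not listed. The 3 miRNAs of slow oxidative fibres, a fibre type rich in mitochondria, summed to 5013 to 27870 in Sham against 1043 to 3257 in TAC, while the slow myosin mRNA Myh7 was not listed, so no slow-fibre mRNA was measured. Myh2, the myosin of fast oxidative fibres, was at 9.32 to 29.7 in Sham against 4.17 to 8.28 in TAC. Immune miRNAs (5 of 5 listed) were at 1256 to 1728 in Sham against 1104 to 1130 in TAC, with no member past the threshold. The fast-fibre (3 of 3 listed), endothelial (2 of 2), erythroid miRNA (2 of 2) and nerve (1 of 2) lists overlapped between the groups, and the 2 erythroid mRNAs were not listed. Their part in the values of the mitochondrial tRNAs was not tested.

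Fragments of mitochondrial mRNAs, which are cut from the same precursors, came to 5249, 3225 and 4490 UMIs per 1000000 miRNA UMIs in Sham against 3394, 1901 and 3295 in TAC. The groups overlapped, since TAC 1 was above Sham 2, and the mean log2 values differed by -0.61, beside -0.55 for the mitochondrial tRNAs. All 13 mitochondrial mRNAs were listed in the mRNA table, where they made up 78.5% to 86.1% of the UMIs in Sham against 72.2% to 85.3% in TAC. Scaling within the mRNA class therefore holds their fold changes near 0 by construction. On that scale none passed in edgeR, beside 4 of 49 mRNAs tested (8.16%). None had an unadjusted p under 0.05, and DESeq2 called 0. Their log2 fold changes ran from -0.13 to 0.23. The complex I subunit gene mt-Nd4, the mRNA gene just upstream of mt-Th, had a log2 fold change of -0.12 (SE 0.25, 95% interval -0.62 to 0.37). The ratio of mitochondrial tRNA to mitochondrial mRNA UMIs was 2.43, 3.23 and 1.85 in Sham against 2.36, 3.11 and 2.25 in TAC, with overlap.

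The nuclear tRNAs for the same amino acids gave other values. The 8 nuclear histidine tRNAs summed to 4941, 4339 and 4613 CPM in Sham against 6444, 4765 and 4923 in TAC, with overlap, and 0 of 8 passed in edgeR. Nuclear serine tRNAs summed to 8742, 7355 and 7831 CPM in Sham against 7235, 8215 and 9739 in TAC, and 0 of 10 tested passed. For glutamine 0 of 15 tested nuclear tRNAs passed, with a median log2 fold change of 0.43. The mitochondrial tRNAs held far more fragments than the nuclear ones for serine, and fewer for glycine, glutamate and valine, the most abundant nuclear isotypes. Serine was not alone: for leucine, methionine and histidine, among others, mitochondrial fragments also outnumbered nuclear ones in every library. Glycine made up 25.7%, glutamate 18.9% and valine 18.8% of nuclear tRNA UMIs. Valine had 0 of 16 tested nuclear tRNAs past the threshold, glycine 1 of 25 (higher) and glutamate 2 of 18 (lower).

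Some 3′ fragments of mitochondrial tRNAs were deposited outside the tRNA table, among sequences that map to the genome without annotation. Of 1832 such sequences 119 were placed on the mitochondrial chromosome, and 39 of these were a stretch of at least 15 bases from the 3′ end of a mitochondrial tRNA gene followed by 1 to 4 further letters, in 28 of the 39 exactly CCA. Another 14 sequences of the same build were placed by the authors on nuclear chromosomes, which hold copies of mitochondrial DNA, and are counted separately. CCA is the ending that TRNT1 adds. The further letters were compared only with the start of the next annotated gene on the strand, since the genome sequence itself was not used here. Of those with exactly CCA placed on the mitochondrial chromosome, the most abundant one of each of the 6 tRNAs is shown. For mt-Th, which had none with exactly CCA, the most abundant of all and the one ending in CA are shown. For mt-Tv a more abundant CCA-tailed sequence was placed on a nuclear chromosome. Lower case is gene sequence and capitals are the letters beyond the gene's annotated end. All were chosen after their values were seen.
mt-Tv from base 51: tgaccaatgaacactctgaCCA
mt-Ta from base 34: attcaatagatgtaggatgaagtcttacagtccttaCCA
mt-Tq from base 30: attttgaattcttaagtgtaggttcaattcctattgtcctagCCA
mt-Tf from base 52: attgtatcccataaacaCCA
mt-Tt from base 30: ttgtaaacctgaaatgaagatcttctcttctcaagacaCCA
mt-Ts2 from base 29: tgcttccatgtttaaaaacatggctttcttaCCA
mt-Th from base 31, next gene's A: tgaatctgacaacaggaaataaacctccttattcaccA
mt-Th from base 31, CA: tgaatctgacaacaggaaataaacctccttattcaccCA

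Together the 28 CCA-tailed sequences placed on the mitochondrial chromosome had 715, 422 and 382 UMIs per 1000000 miRNA UMIs in Sham against 179, 165 and 218 in TAC. Every TAC library was below every Sham library, with means of 506 ± 182 and 187 ± 27.4 (SD, n = 3). They came from 6 tRNAs, and for 5 of these, mt-Tv, mt-Ta, mt-Tq, mt-Tt and mt-Ts2, the groups did not overlap. For the sixth, mt-Tf, TAC 1 was just above Sham 3. On this scale 74 of 238 tRNAs of the tRNA table (31.1%) were also lower in TAC without overlap. Those are counts of whole tRNAs and not sums of single listed sequences. A sequence was listed only where it reached 10 UMIs in some library, and Sham 1 is the deepest library. It held the highest count of 27 of the 28 CCA-tailed sequences and of 836 of all 1832, so the listing itself favours sequences that were high in Sham 1. The sums above, together and by tRNA, hold these same sequences and are given as a description. Of the 28, 6 reached 10 UMIs in Sham libraries alone and 0 in TAC libraries alone, so counts of sequences that were lower in TAC are not given for them. The sums by tRNA include those 6, so whether groups overlap there rests in part on the listing. For mt-Ta the groups overlapped without them, with TAC 1 above Sham 3.

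**Figure D5:**
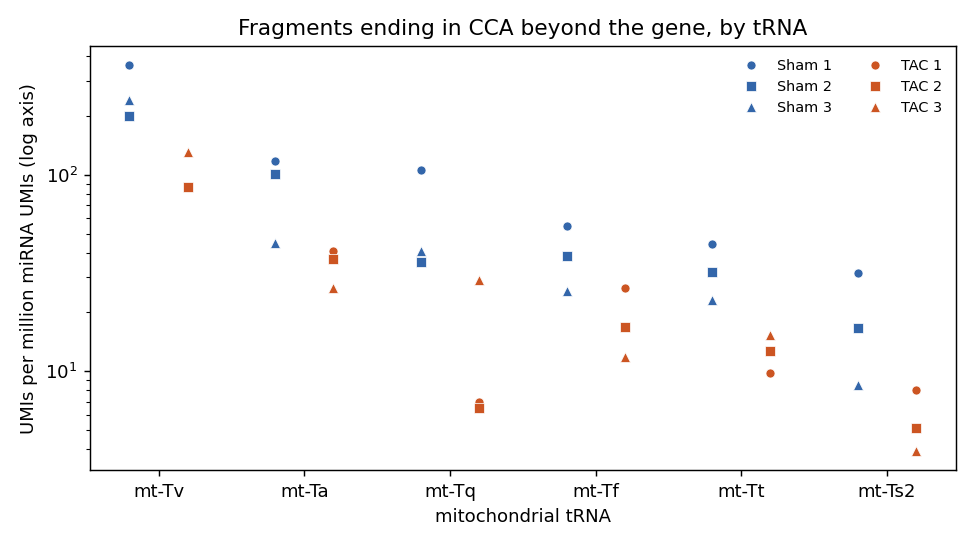
UMIs per 1000000 miRNA UMIs (log axis) of fragments that end in CCA beyond the gene, summed by tRNA, in each library, for sequences placed on the mitochondrial chromosome. For mt-Tv, mt-Ta, mt-Tq, mt-Tt and mt-Ts2 all TAC libraries lie below all Sham libraries, and for mt-Tf they overlap. The sums include sequences that reached 10 UMIs in Sham libraries alone. Without these the mt-Ta groups overlap, so the sums are a description.

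None of the mitochondrial sequences in this table passed in edgeR, where 2 of all 1244 tested did (0.161%). Over the 93 mitochondrial sequences tested, tailed or not, DESeq2 called 14 and the replicate block in edgeR 25, and an unadjusted p under 0.05 was found for 42. Over all 1244 DESeq2 called 54 (4.34%) and the block 141 (11.3%), and 259 (20.8%) had an unadjusted p under 0.05. The same listing chose these sequences, so their counts are a description. The 22-base mt-Tv fragment from base 51 had 463, 140 and 112 UMIs in Sham against 82, 46 and 103 in TAC. Its log2 fold change was -1.67 (SE 0.36). The adjusted p was 0.0602 by edgeR, 0.0028 by DESeq2 and 0.00656 with the block, and from 0.0200 to 0.244 without any 1 library. The mt-Tq fragment from base 30, which starts 3 bases before the anticodon, had 215, 54 and 34 UMIs in Sham against 7, 4 and 31 in TAC. Its log2 fold change was -2.79 (SE 0.65, adjusted p = 0.0611 by edgeR, and 0.0267 to 0.267 without any 1 library). The adjusted p was 0.000695 by DESeq2 and 0.00674 by edgeR with the block. In both, TAC 3 held the highest value of the TAC libraries.

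Set against the tRNA table, these fragments were a large addition for some tRNAs and none for others. The CCA-tailed mt-Tv fragments of mitochondrial placement numbered 1.77, 1.36 and 1.47 per UMI of mt-Tv in the tRNA table in Sham. In TAC they numbered 0.528, 0.771 and 1.56, with TAC 3 within the Sham range. Counting also those placed on nuclear chromosomes, the ratios were 2.805, 2.656 and 3.031 in Sham against 1.038, 1.512 and 3.156 in TAC, with TAC 3 highest. In the tRNA table itself mt-Tv had 7475, 6050 and 6865 CPM in Sham against 9106, 5957 and 4110 in TAC (log2 fold change -0.09, SE 0.37). For mt-Ts2, by far the most abundant tRNA, the ratio was 0.001 to 0.004 in all libraries. For mt-Ts1, mt-Tl1 and mt-Tm no tailed fragment was listed. With the tailed sequences placed on the mitochondrial chromosome added to the counts of their tRNAs, 0 of the 22 passed in edgeR. On these counts mt-Tv had a log2 fold change of -0.59.

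The 3′ fragments of mt-Th had no tail of exactly CCA and are given over all tails. All 9 listed sequences started at base 31, the second base of the anticodon, and ran past the annotated end of the gene by 1 to 4 letters. An added A, alone or doubled, is also the start of mt-Ts2, the next gene, so these sequences cannot be assigned to an added A or to an uncut precursor. A CA after the closing c of the gene reads CCA, and the tail ACCA also ends in CCA. Over all tails, and counting those placed on nuclear chromosomes, there were 522, 451 and 470 UMIs per 1000000 miRNA UMIs in Sham against 338, 399 and 702 in TAC, with overlap and the highest value in TAC 3. The share whose letters beyond the gene were exactly CA was 27.4%, 26.5% and 26.9% in Sham against 14.7%, 19.3% and 17.5% in TAC, without overlap. In level the CA sequence had 143, 119 and 126 UMIs per 1000000 miRNA UMIs in Sham against 49.7, 76.9 and 123 in TAC, with overlap. Its log2 fold change was -0.70 (SE 0.30, adjusted p = 0.206 by edgeR). The share with exactly ACCA was 21.8%, 23.0% and 19.7% in Sham against 17.9%, 17.6% and 28.6% in TAC, with overlap. The share with exactly ACC was 5.79%, 6.10% and 4.51% in Sham against 12.1%, 8.88% and 9.63% in TAC, also without overlap. That with exactly AC was 0.891%, 1.13% and 1.26% in Sham against 3.09%, 2.92% and 1.49% in TAC, again without overlap. That with exactly A was 20.2%, 19.4% and 28.9% in Sham against 29.9%, 28.9% and 23.9% in TAC, with overlap. The shares of C, CC, ACA and AA overlapped. All tails together make up the whole, so a lower share of one raises others. Per UMI of mt-Th in the tRNA table the tailed fragments numbered 1.89, 1.80 and 2.80 in Sham against 0.746, 1.28 and 2.34 in TAC. Only the 7 sequences placed on the mitochondrial chromosome were added to its count, without ACC and ACCA. With them the log2 fold change of mt-Th was 0.60 (SE 0.32, adjusted p = 0.288 by edgeR, and 0.109 with the replicate block), in place of 1.03.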

How the data were processed

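Raw counts were deposited by the authors as a table for each RNA class, with a UMI and a read column per library, per the file headers. GRCm38 is the genome named in the submitters' processing notes. For this series the aligner, the use of strand, the treatment of reads that fit several loci and the handling of added CCA were steps not given in the sources used here, so fragments of mitochondrial tRNAs, their antisense transcripts and their nuclear copies may be mixed. Each listed tRNA reached at least 10 UMIs in some library. Columns were matched to samples by the sample descriptions.

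The UMI counts of the whole tRNA table were tested with edgeR 4.0.16 (R 4.3.3), with TMM factors, filterByExpr (minimum count 10, minimum total 15) and its quasi-likelihood test (two-sided), TAC against Sham. The p-values were adjusted by Benjamini and Hochberg over all tested features of the class, with a threshold of 0.05. Each SE is the fold change divided by the root of its F statistic. The mRNA table and the sequences without annotation were tested alike. Alternatives were DESeq2 1.42.0, limma-voom 3.58.1, other scalings, no filter, read counts, a threshold of 0.1, each library left out, and the replicate number as a block. Adding the tailed fragments, only those placed on the mitochondrial chromosome, was chosen after seeing the data. The steps were tested on simulated data. At a simulated log2 change of 1, 15 of 23 changed tRNAs (65.2%) and 30 of 93 changed sequences without annotation (32.3%) were recovered. At a log2 change of 2, 24 of 24 and 96 of 98 were recovered.

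The labels number the libraries of both groups from 1 to 3 without saying what the numbers mark. Deviations of log2 CPM from the group means, over 238 tRNAs, correlated between same-numbered libraries with r = 0.24, 0.30 and 0.35, and between other pairs with r of 0.05 or less. By a criterion of r above 0.1 in each pair they were taken as pairing. This comes from the data and not from the labels, deviations cancel out within a group, and the tRNAs are not independent.

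The members and lists were chosen with earlier results of these data known. The naming rule asks for values in every library for members past the threshold and for the 5 most abundant by CPM, ranges for the others, up to 4 other mitochondrial RNAs per direction past the threshold, and of nuclear tRNAs the 3 most abundant isotypes. Isotypes of the same amino acid as a described member were added.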

Additional observations from a re-analysis of the deposited data

How the results depend on the processing

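No mitochondrial tRNA passed with RLE or upper-quartile factors, miRNA-based library sizes, nuclear tRNAs alone for scaling, no filter, read counts, a threshold of 0.1, limma-voom, DESeq2 or any 1 library left out (0 to 0). The count was 1 with tRNA library sizes (mt-Th) and 1 with sizes over all classes (mt-Ts1). In the paired analysis with the replicate block, whose pairing was taken from these data, it was 3, also 3 with miRNA-based sizes, and 2 (mt-Ts1 and mt-Tq) when tailed fragments were added. Over all tRNAs 10 passed, against 5 with miRNA-based sizes, 6 by DESeq2, 17 with sizes over all classes, 29 with the block, 26 with the block and miRNA-based sizes, 28 with the block and tailed fragments, and 3 to 12 with 1 library left out. Of mitochondrial sequences without annotation 0 passed, against 2 with miRNA-based sizes, 14 by DESeq2, 25 with the block and 0 to 16 with 1 library left out (8 without Sham 2, 16 without Sham 3). The log2 ratio of the mitochondrial share was 0.14, and -0.07 to 0.31 with 1 library left out, and -0.52 over UMIs of all classes. Per 1000000 miRNA UMIs the log2 ratio was -0.71 to -0.40 with 1 library left out. The cause of these differences was not tested.

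Signs turned for some members whose value lay within 0.34 of 0 on the log2 scale. With tRNA library sizes they were 0.21 (mt-Tv), 0.18 (mt-Tl1), 0.12 (mt-Tc), 0.10 (mt-Tk), 0.18 (mt-Tg), 0.20 (mt-Ts2), 0.19 (mt-Tl2) and 0.20 (mt-Tt). With upper-quartile factors they were 0.027 (mt-Tv), 0.002 (mt-Tl1), 0.017 (mt-Tg), 0.034 (mt-Ts2), 0.018 (mt-Tl2) and 0.049 (mt-Tt). With sizes over all classes they were -0.27 (mt-Ta), -0.15 (mt-Td) and -0.19 (mt-Tr). For mt-Ta the value was also -0.017 with miRNA-based sizes, -0.045 with the block and those sizes, -0.12 with tailed fragments added and -0.13 with these and the block. Without both libraries numbered 3 it was -0.17, and 0.11 for mt-Tv. With 1 library left out the sign of 12 members turned, with ranges of -0.68 to 0.15 (mt-Tf), -0.43 to 0.14 (mt-Tv), -0.36 to 0.039 (mt-Tl1), -0.053 to 0.33 (mt-Ta), -0.37 to 0.081 (mt-Tc), -0.20 to 0.83 (mt-Td), -0.42 to 0.099 (mt-Tk), -0.40 to 0.071 (mt-Tg), -0.40 to 0.63 (mt-Tr), -0.23 to 0.052 (mt-Ts2), -0.28 to 0.082 (mt-Tl2) and -0.55 to 0.18 (mt-Tt).

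With 3 libraries a group, the SE of the log2 fold change was 0.32 to 0.44 over the 22 tRNAs. Sham 3 is the shallowest library, and low members such as mt-Tf rest on few UMIs there.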
